A study of Mus musculus with 92 samples.

Results

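The transcripts described here are those of 9 histone acetyltransferase genes, Ep300, Crebbp, Kat2a, Kat2b, Kat5, Kat6a, Kat6b, Kat7 and Kat8, taken by gene name from 4 tables of raw RNA-seq counts. They are 9 of the 54532 genes in those tables, and each was counted in all 92 mouse intestinal libraries, which fall into 21 groups. The material was crypt and villus tissue, cultured organoids of the small intestine and spheroids from fetal intestine, where floxed Eif4g2 (the gene of a translation initiation factor related to eIF4G) had been deleted by CreER, a recombinase switched on by tamoxifen. In a further set of organoids the catalytic domain shared by p300 and CBP was inhibited with A-485. Of the 2 interventions, deletion of Eif4g2 raised Ep300 and Crebbp mRNA in crypts, villi, organoids and, against their own DMSO controls, flox/flox spheroids. Deletion also lowered Kat8, in 5 of the 7 deletion comparisons counted below. A-485 raised Ep300 and, far more, Kat2b, and lowered Kat2a and Kat8. In the main fit, which does not pair libraries by line, only Kat2b was called at every dose, and the fall of Kat2a was called only at the highest. With libraries paired by line Ep300 was also called at 3 µM and Kat2a at 5 µM. All values are mRNA, and neither protein nor acetylation was measured in these libraries.

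In the mice, homozygous Eif4g2(flox/flox) and heterozygous Eif4g2(flox/+) animals carried the same CreER and all received tamoxifen, 100 mg/kg daily for 4 days, so the heterozygous controls had also lost 1 copy of the gene. Rosa26-CreER, which acts in all cell types, was sampled on day 9, giving 4 crypt libraries from homozygotes, 5 from heterozygotes and 5 villus libraries per genotype. Vil1-CreER, whose promoter restricts recombination to the intestinal epithelium, was sampled at 3 months, giving 3 crypt and 6 villus libraries from homozygotes and 4 of each from heterozygotes. Ages and strains of the animals are not given in the sources used here. A first organoid set held 3 Eif4g2(flox/flox) Rosa26-CreER lines, each with DMSO and with 4-hydroxytamoxifen (4-OHT, the active form of tamoxifen), 0.5 µM for 24 h, collected on day 6. A second organoid set, all given 4-OHT and collected on day 6, held 4 flox/flox, 4 flox/+ and 4 Eif4g2(+/+) libraries, all with Rosa26-CreER (the last are called CreER-only here). Fetal spheroids of 6 flox/flox and 5 flox/+ lines with Rosa26-CreER were collected on day 6 with DMSO and with 4-OHT. The A-485 series held 4 organoid lines, each cultured for 4 days in DMSO or in A-485 at 3, 5 or 10 µM, without 4-OHT; line 1 was Eif4g2(+/+) and the others flox/flox with the gene intact, all with Rosa26-CreER. One of the flox/flox lines was used both there and in the first organoid set.

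Acetyltransferases transfer acetyl groups to lysines of histones and other proteins, a modification that goes with open chromatin and active transcription. p300 (Ep300) and CBP (Crebbp) are paralogous coactivators that acetylate histone H3 lysine 27 at enhancers and promoters. GCN5 (Kat2a) and PCAF (Kat2b) are a second paralogous pair that acetylates H3 lysine 9 within the SAGA and ATAC complexes. The MYST family comprises TIP60 (Kat5), MOZ (Kat6a), MORF (Kat6b), HBO1 (Kat7) and MOF (Kat8), which work within complexes, and MOF is the main acetyltransferase of H4 lysine 16.

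The 9 genes lie, on GRCm38, at chr15:81585351-81652077 (Ep300, ENSMUSG00000055024), chr16:4081328-4213997 (Crebbp, ENSMUSG00000022521), chr11:100704746-100712465 (Kat2a, ENSMUSG00000020918), chr17:53566861-53672720 (Kat2b, ENSMUSG00000000708), chr19:5603017-5610094 (Kat5, ENSMUSG00000024926), chr8:22859535-22943259 (Kat6a, ENSMUSG00000031540), chr14:21481434-21672478 (Kat6b, ENSMUSG00000021767), chr11:95274259-95310246 (Kat7, ENSMUSG00000038909) and chr7:127912516-127925837 (Kat8, ENSMUSG00000030801).

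Levels are CPM, read counts scaled to a common library size, after TMM scaling, edgeR's correction for differences in RNA composition, computed over all groups of a set, so levels are comparable within a set and not between sets. Fold changes come from fits to the compared groups, on the log2 scale with a standard error (SE), and can differ slightly from ratios of the printed CPM. A gene is said to have risen or fallen, or to have been called, where edgeR's quasi-likelihood test gave a Benjamini-Hochberg adjusted p under 0.05 over all genes tested. Library totals ran from 8652040 to 16436145 counts in the A-485 series and from 14790237 to 37611126 elsewhere. Eif4g2 itself was lower in every homozygous or 4-OHT-treated flox/flox library than in any control of the same tissue, for example 145.8 ± 2.1 CPM with 4-OHT against 747.2 ± 41.3 with DMSO in the first organoid set (SD, n = 3 each). Epithelial markers summed to at least 3300 CPM in every library. In organoids immune markers summed to at most 7.45 CPM, while in Rosa26-CreER crypts they ran from 86.6 to 1750 CPM in homozygous and from 125 to 436 in heterozygous libraries, and in Vil1-CreER villi from 46.8 to 194 and from 255 to 448 CPM. The Y-linked transcript Ddx3y was at 1 CPM or more in all heterozygous Rosa26-CreER libraries. It was at 0 in 3 of 4 homozygous crypt and 3 of 5 homozygous villus libraries, so sex differed with genotype there. With Y-linked transcripts as a covariate no member's call changed. That adjustment rests on the few homozygous libraries with Ddx3y, a single library in crypts, so it cannot fully separate sex from genotype. Crypt stem cell markers (Lgr5, Olfm4, Ascl2, Smoc2 and Axin2) were lower in all deleted crypts and organoids than in their controls, for example 199 to 255 against 1160 to 1620 CPM in the first organoid set, and 43.2 to 76.9 against 6370 to 7650 with 10 µM A-485. In such bulk libraries a change in which cells are present and a change of RNA per cell cannot be told apart, and the part of cell composition in the changes below was not tested.

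Counts of deletion comparisons below are over 7 of them, the 4 tissue comparisons between genotypes, the first organoid set, second-set flox/flox against flox/+ organoids, and flox/flox spheroids with 4-OHT against DMSO. Flox/flox against CreER-only organoids and spheroids with 4-OHT between genotypes reuse the deleted libraries of 2 of these and are given separately. From 19.1% (flox/flox spheroids) to 46.8% (second-set organoids) of all tested genes were called in the 7. The share of all genes called in as many of them as a member was not counted, so such counts have no background here. Ep300 mRNA was higher after deletion of Eif4g2 in all 7, by 1.59-fold to 2.86-fold. Rosa26-CreER crypts had 188, 124, 169 and 181 CPM in homozygous and 101, 109, 88.1, 80.6 and 91.3 CPM in heterozygous libraries. The groups did not overlap, and the log2 difference was 0.88 (SE 0.13, edgeR adjusted p = 0.00199). In Rosa26-CreER villi homozygous libraries had 200, 310.5, 323, 307 and 236 CPM and heterozygous ones 95.5, 122, 94.6, 109.7 and 124 CPM. Here too every homozygous value lay above every heterozygous one, with a log2 difference of 1.26 (SE 0.14, edgeR adjusted p = 0.000109). Vil1-CreER crypts had 129, 151 and 150.1 CPM against 98.1, 92.9, 94.1 and 90.3 CPM (log2 0.67, SE 0.08, edgeR adjusted p = 0.000765). The 6 homozygous Vil1-CreER villus libraries had a lowest value of 183, a median of 197 and a highest of 220 CPM, against 107, 85.2, 101 and 105 CPM in heterozygous villi (log2 0.98, SE 0.11, edgeR adjusted p = 1.65e-05). Ep300 was thus above control in both compartments and with both drivers, without overlap of the groups. The share of all tested genes whose groups do not overlap was not counted, for these or any comparisons below. Separation is therefore given as a description of the values only. All crypt libraries came from animals that also gave villus libraries, so the crypt and villus comparisons of a driver are not independent.

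Both organoid deletion sets showed the same direction for Ep300. The first set had 322, 328 and 296 CPM with 4-OHT and 121, 129 and 129 CPM with DMSO, 2.48-fold apart (log2 1.31, SE 0.08, edgeR adjusted p = 0.000203). In the second set flox/flox libraries had 330, 340, 307 and 328 CPM, flox/+ libraries 127, 117, 103 and 111 CPM, and CreER-only libraries 114, 123, 128 and 129 CPM. Every flox/flox library lay above all 8 others, and the flox/+ and CreER-only values overlapped. The flox/flox level was 2.86-fold that of flox/+ (log2 1.52, SE 0.07, edgeR adjusted p = 8.67e-10) and 2.65-fold that of CreER-only organoids (log2 1.41, SE 0.07, edgeR adjusted p = 9.97e-10), 2 comparisons that share the flox/flox libraries. In flox/flox spheroids Ep300 ran from 54.7 (median 90.2, highest 136) CPM with DMSO to between 115 and 351 CPM (median 212) with 4-OHT. These ranges overlapped, but each of the 6 lines was higher with 4-OHT, by 1.89-fold to 2.92-fold, and the mean log2 difference was 1.28 (SE 0.25, edgeR adjusted p = 0.00131).

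Crebbp, the paralog of Ep300, rose in the same 7 comparisons, by 1.45-fold to 2.63-fold, and was not called between spheroid genotypes with 4-OHT (given below). Homozygous Rosa26-CreER crypts had 97.4, 65.6, 104 and 104 CPM against 55, 58.3, 42.7, 42.7 and 45.7 CPM in heterozygous ones (log2 0.99, SE 0.14, edgeR adjusted p = 0.0022). In Rosa26-CreER villi the values were 106, 117, 133, 126 and 123 against 50.2, 58.7, 56.7, 61.8 and 64.9 CPM (log2 0.97, SE 0.10, edgeR adjusted p = 6e-05). The groups were separate in both tissues, and homozygous crypt replicate 3 was lowest of its group for both genes. Vil1-CreER crypts had 57.2, 72.5 and 63.4 against 45.8, 49.98, 42.3 and 47.01 CPM (log2 0.54, SE 0.09, edgeR adjusted p = 0.00348), the smallest of the 7 differences, which was not called when libraries were scaled by their totals (0.40, edgeR adjusted p = 0.0862). In Vil1-CreER villi homozygous libraries ran from 78.6 to 100.4 CPM (median 86.7), above the heterozygous 50.2, 45.8, 49.5 and 50.8 CPM (log2 0.84, SE 0.11, edgeR adjusted p = 3.96e-05). The share of reads from the mitochondrial genome differed in the same direction as genotype in Rosa26-CreER crypts, 13.7% to 25.2% in homozygous and 6.24% to 12.4% in heterozygous libraries, and in Vil1-CreER crypts, 30.4% to 40.3% and 17.5% to 30.8%. Its part in these differences was not tested.

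In organoids Crebbp rose in both deletion sets. With 4-OHT the first set had 142, 125 and 129 CPM, and with DMSO 55.6, 53.9 and 62.2 CPM (log2 1.19, SE 0.09, edgeR adjusted p = 0.000338). Second-set flox/flox organoids had 137, 132, 131 and 140.5 CPM, flox/+ organoids 63.0, 57.7, 53.1 and 62.6 CPM, and CreER-only organoids 67.7, 70.9, 77.2 and 68.95 CPM. Flox/flox libraries were thus 2.3-fold above flox/+ (log2 1.20, SE 0.06, edgeR adjusted p = 3.89e-09) and 1.9-fold above CreER-only libraries (log2 0.93, SE 0.06, edgeR adjusted p = 4.88e-08). In flox/flox spheroids Crebbp had a lowest value of 11.6, a median of 25.9 and a highest of 47.5 CPM with DMSO, and of 28.5, 64.3 and 125 CPM with 4-OHT. All 6 lines were higher with 4-OHT, by 1.72-fold to 3.54-fold (log2 1.39, SE 0.38, edgeR adjusted p = 0.0143). In each of the same 6 lines crypt stem cell markers were lower with 4-OHT, 38.7 to 508 CPM in sum against 112 to 4740 CPM with DMSO, and the part of this in the spheroid values was not tested.

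**Figure D1:**
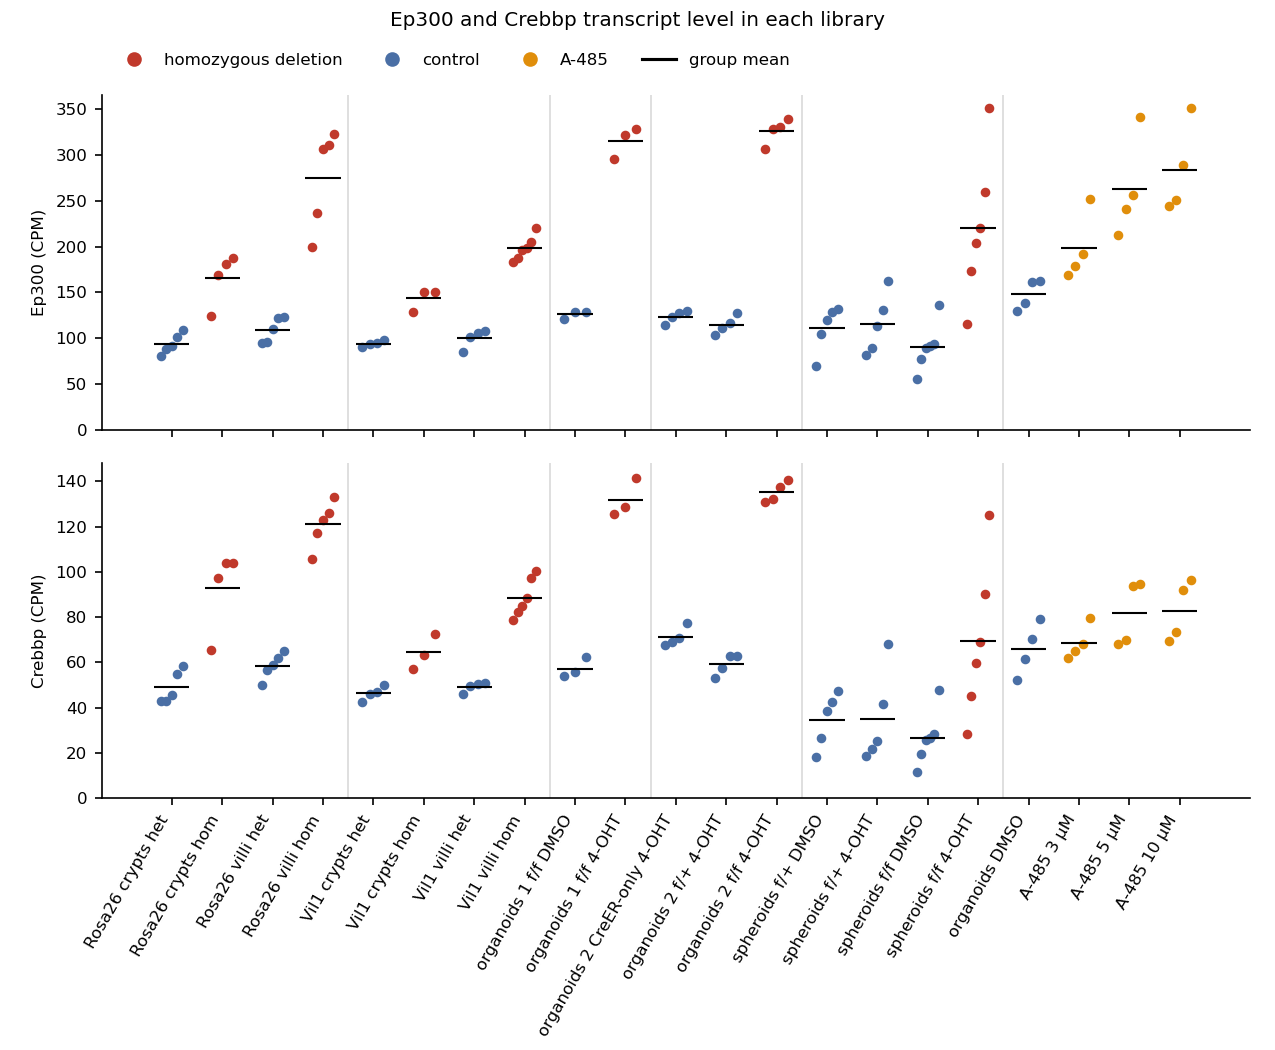
Ep300 (top) and Crebbp (bottom) level in CPM, on linear axes from 0, in each library of the 21 groups; red points are homozygous deletion, blue points controls and orange points A-485, and short lines are group means. Deleted crypts, villi and organoids lie above their controls without overlap for both genes, while flox/flox spheroids with DMSO (Ep300 54.7 to 136 CPM) and with 4-OHT (115 to 351 CPM) overlap.

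Kat2a, the GCN5 acetyltransferase of SAGA and ATAC, rose in 5 of the 7 comparisons, had a higher fitted mean in the other 2, and was called in both comparisons given separately. In the first organoid set it had 85.1, 73.0 and 97.6 CPM with 4-OHT and 60.4, 56.6 and 55.9 CPM with DMSO, with no overlap (log2 0.55, SE 0.12, edgeR adjusted p = 0.00931; 0.0968 when the A-485 libraries were fitted with them). Second-set organoids showed a smaller rise, 76.6, 73.3, 70.5 and 71.3 CPM in flox/flox against 60.1, 62.6, 66.7 and 63.2 in flox/+ and 61.6, 65.8, 56.0 and 62.4 in CreER-only libraries. The log2 differences there were 0.21 (SE 0.06, edgeR adjusted p = 0.00834) and 0.25 (SE 0.06, edgeR adjusted p = 0.00296). Vil1-CreER crypts had 51.5, 58.1 and 56.1 against 36.7, 37.2, 35.9 and 35.6 CPM, 1.59-fold apart (edgeR adjusted p = 0.000447; 0.11 when crypts and villi were fitted together). In Vil1-CreER villi, where Kat2a is scarce, homozygous libraries ran from 7.74 to 26.3 CPM (median 18.2) and heterozygous ones had 5.22, 6.01, 5.86 and 2.86 CPM, 3.46-fold apart (log2 1.79, SE 0.31, edgeR adjusted p = 0.000553). In flox/flox spheroids Kat2a was higher with 4-OHT in 6 of 6 lines, by 1.1-fold to 1.78-fold (log2 0.52, SE 0.15, edgeR adjusted p = 0.0207). That spheroid call was lost without DMSO replicate 1 (0.47, edgeR adjusted p = 0.0525) and without 4-OHT replicate 6 (0.39, edgeR adjusted p = 0.0731), and with only the flox/flox groups fitted (0.51, edgeR adjusted p = 0.0509).

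Rosa26-CreER villi depended on a single library for Kat2a. Homozygous villi had 6.84, 6.22, 10.9, 5.03 and 6.29 CPM, and heterozygous villi 2.79, 2.10, 7.57, 2.66 and 2.37 CPM. The third heterozygous library lay inside the homozygous range and the other 4 below it. With it the log2 difference of 0.92 (SE 0.38) was not called (edgeR adjusted p = 0.0794), and without it the difference was 1.48 (edgeR adjusted p = 0.00122). It was also called with library totals (1.04, edgeR adjusted p = 0.0437), in DESeq2 (0.94, adjusted p = 0.0366) and with crypts in the fit (1.00, edgeR adjusted p = 0.0146). Proliferation markers, all 5 of them detected, summed to 93.6 to 135 CPM in homozygous and 58.5 to 82.1 CPM in heterozygous villi, and in Vil1-CreER villi to 113 to 302 and 88.3 to 118 CPM, and their part in the Kat2a values was not tested. That library also had the highest mitochondrial share of its group, 24.5% against 2.74% to 9.63%, whose part was not tested. In Rosa26-CreER crypts Kat2a overlapped between genotypes, 43.1 to 60.3 against 34.2 to 51.6 CPM (log2 0.28, SE 0.11, edgeR adjusted p = 0.109).

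Kat2b, the PCAF paralog of Kat2a, did not follow it. It fell in Vil1-CreER villi, where homozygous libraries ran from 35.6 to 55.8 CPM (median 44.4) and heterozygous ones had 80.9, 63.1, 64.8 and 86.8 CPM (log2 -0.76, SE 0.14, edgeR adjusted p = 0.00076). It also fell in Vil1-CreER crypts, with 22.3, 24.04 and 24.97 against 36.5, 27.1, 38.9 and 34.5 CPM (log2 -0.46, SE 0.13, edgeR adjusted p = 0.0255). That call was lost without heterozygous replicate 1 or 3 or any of the 3 homozygous libraries (log2 from -0.50 to -0.39, edgeR adjusted p from 0.0525 to 0.097), and with villi in the fit (edgeR adjusted p = 0.0532). The other 5 deletion comparisons gave no call for Kat2b, with log2 differences from -0.14 to 0.19, although without flox/+ organoid replicate 1 it was called in flox/flox against flox/+ organoids (0.28, edgeR adjusted p = 0.0299). In the first organoid set its values were 32.2, 32.3 and 26.1 CPM with 4-OHT and 27.6, 25.02 and 28.4 CPM with DMSO (log2 0.15, SE 0.12, edgeR adjusted p = 0.346).

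**Figure D2:**
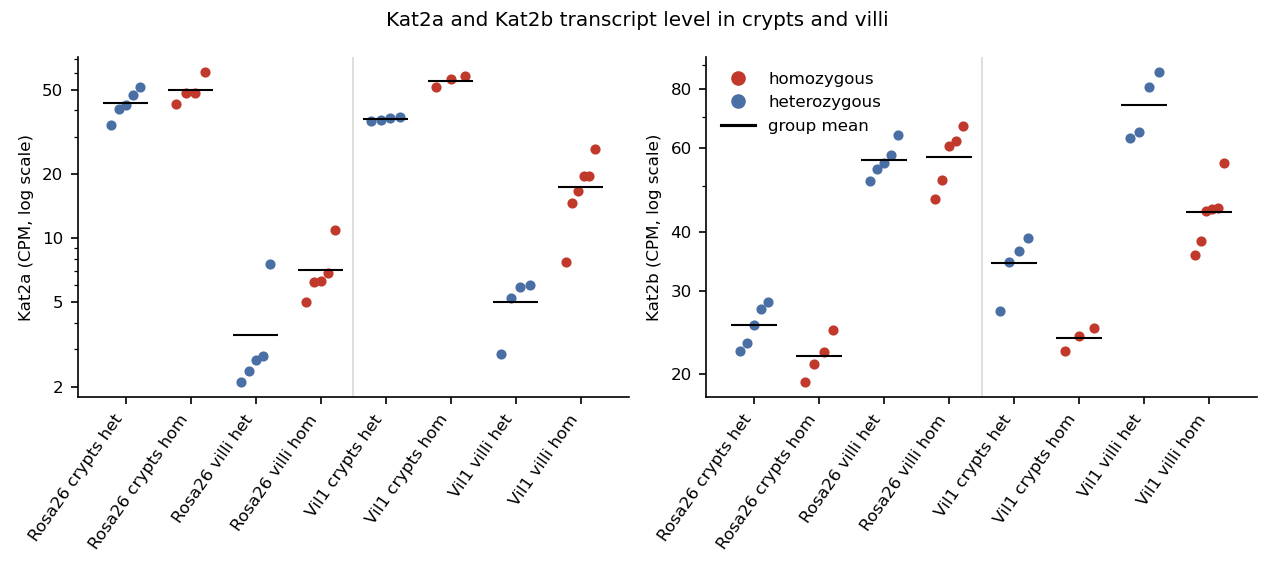
Kat2a (left) and Kat2b (right) level in CPM, on log axes, in each crypt and villus library by driver, with homozygous libraries in red, heterozygous ones in blue and short lines at group means. Kat2a is lower in villi than in crypts for each driver and genotype and Kat2b higher, and homozygous Vil1-CreER villi (Kat2a 7.74 to 26.3 CPM) lie above heterozygous ones (2.86 to 6.01 CPM).

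Kat8, the MOF acetyltransferase, was the member that fell most often after deletion, called in 5 of the 7 comparisons and with a negative fitted difference in all 7. Between spheroid genotypes with 4-OHT its difference of -0.24 was not called (edgeR adjusted p = 0.189). With 4-OHT the first organoid set had 13.8, 13.6 and 14.7 CPM, below 22.1, 21.6 and 22.7 CPM with DMSO (log2 -0.67, SE 0.10, edgeR adjusted p = 0.00227). Second-set flox/flox organoids had 17.4, 15.4, 16.6 and 14.04 CPM, against 22.6, 23.2, 24.4 and 25.5 in flox/+ and 21.8, 23.6, 22.2 and 24.4 in CreER-only libraries. All flox/flox values were below all others, by 0.59 (SE 0.09, edgeR adjusted p = 5.33e-05) and 0.53 (SE 0.09, edgeR adjusted p = 0.00014) on the log2 scale. Flox/flox spheroids fell in 6 of 6 lines, to between 0.579 and 0.84 of the DMSO level (log2 -0.50, SE 0.11, edgeR adjusted p = 0.00318). Homozygous Rosa26-CreER villi had 9.88, 6.22, 7.94, 9.51 and 10.9 CPM against 13.1, 13.1, 11.8, 11.9 and 12.4 CPM (log2 -0.56, SE 0.15, edgeR adjusted p = 0.0156). In Vil1-CreER villi the difference of -0.39 (SE 0.15) was just past the threshold (edgeR adjusted p = 0.0481) and was lost without any 1 of the heterozygous libraries or homozygous replicate 1, 2, 4 or 6 (edgeR adjusted p from 0.0576 to 0.106). It was also lost with library totals (-0.23, edgeR adjusted p = 0.301) and with no low-count filter (-0.37, edgeR adjusted p = 0.145). Reads of Kat8 and of Prss8, which overlaps it on the other strand, cannot be told apart if strand was not used in counting, so these values are uncertain to that extent.

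Among the remaining MYST genes deletion gave few calls. Kat6b (MORF) rose in the first organoid set, 54.2, 57.2 and 47.5 against 38.0, 35.4 and 37.7 CPM (log2 0.50, SE 0.10, edgeR adjusted p = 0.00644), and in second-set flox/flox against flox/+ organoids (0.34, SE 0.08, edgeR adjusted p = 0.00314). Against CreER-only organoids its difference was 0.20 (SE 0.08, edgeR adjusted p = 0.0583), called without flox/flox replicate 1 (0.24, edgeR adjusted p = 0.0383) or CreER-only replicate 1 (0.26, edgeR adjusted p = 0.0225). Kat6b was also called without homozygous replicate 3 in Rosa26-CreER crypts (0.36, edgeR adjusted p = 0.0131) and without homozygous replicate 1 in Vil1-CreER villi (0.32, edgeR adjusted p = 0.0427). Kat6a (MOZ) had 106, 98.8 and 96.2 against 84.9, 84.5 and 81.2 CPM in the first organoid set (log2 0.25, SE 0.07, edgeR adjusted p = 0.0311). That call was lost without any DMSO library or without 4-OHT replicate 1 or 2 (edgeR adjusted p from 0.0833 to 0.11), with no low-count filter (0.0593) and with the A-485 libraries in the fit (0.163). In Vil1-CreER villi Kat6a instead fell, to between 70.5 and 80.8 CPM from 110, 87.7, 98.9 and 120 CPM (log2 -0.48, SE 0.11, edgeR adjusted p = 0.00304; -0.31 and 0.0562 with library totals). Kat5 (TIP60) and Kat7 (HBO1) were called in none of the 7 comparisons, with log2 differences from -0.08 to 0.12 and from -0.22 to 0.02. Kat7 came closest in Rosa26-CreER crypts (-0.21, edgeR adjusted p = 0.054), where it was called without heterozygous replicate 4 (-0.24, edgeR adjusted p = 0.0489) and in DESeq2 (-0.22, adjusted p = 0.0258). It was also called without homozygous replicate 5 in Vil1-CreER villi (-0.31, edgeR adjusted p = 0.0435) and without flox/flox or flox/+ replicate 1 in second-set organoids (-0.16, edgeR adjusted p = 0.048, and -0.17, edgeR adjusted p = 0.0387).

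Read against all genes tested, the number of members called in the tissues was modest. In Rosa26-CreER crypts 2 of 9 members rose and 0 fell, where 20.2% of all 15846 genes tested were called. For Rosa26-CreER villi the counts were 2 higher and 1 lower, against 33.2% of all genes. Vil1-CreER crypts had 3 higher and 1 lower (29.3% of all genes called) and Vil1-CreER villi 3 higher and 3 lower (42.5%). First-set organoids had 5 members higher and 1 lower, beside 35.4% of all genes called. The second set had 4 higher and 1 lower in flox/flox against flox/+ (46.8%) and 3 higher and 1 lower against CreER-only organoids (45.3%). Flox/flox spheroids had 3 higher and 1 lower, against 19.1% of all genes. Ep300 and Crebbp were the members common to all of these sets.

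Loss of a single copy of Eif4g2 left the members uncalled. Flox/+ organoids had 812.1 ± 20.2 CPM of Eif4g2, and those with CreER alone 1299 ± 37 CPM (SD over 4 libraries each), and edgeR called 0 of 9 members there, beside 0.113% of all genes. At an unadjusted p under 0.05 the number was 2, and DESeq2 called 1. That gene was Crebbp, with all 4 flox/+ values below all 4 CreER-only values (edgeR log2 -0.27, SE 0.06, adjusted p = 0.136; DESeq2 -0.27, adjusted p = 0.0254). In flox/+ spheroids Eif4g2 was lower with 4-OHT in 5 of 5 lines, at 0.494 to 0.665 of the DMSO level, without being called. The unpaired edgeR fit called 0 members and 0% of all genes there. At an unadjusted p under 0.05 it gave 0 members and 15 genes, and DESeq2 called 0 members. Since this edgeR fit missed the fall of Eif4g2 itself, its lack of calls cannot show that the members were unchanged in flox/+ spheroids. Ep300 there had 113, 81.98, 88.8, 130 and 163 CPM with 4-OHT against 104, 129, 69.5, 120 and 132 CPM with DMSO, higher in 4 and lower in 1 of the 5 lines (log2 0.06, SE 0.27).

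The spheroid lines were not uniform, which touches every spheroid value. In DMSO 4 of the 11 lines had crypt stem cell markers at 3050 CPM or more in sum, and the other 7 at 390 CPM or less. A pair of flox/flox lines (replicates 1 and 3) and 2 flox/+ lines (replicates 4 and 5) stood apart in this way. Without these 4 lines Ep300 still rose in flox/flox spheroids (log2 1.14, SE 0.33, edgeR adjusted p = 0.0294) and Kat8 still fell (-0.56, SE 0.16, edgeR adjusted p = 0.0267). The differences of Crebbp (1.16, edgeR adjusted p = 0.107) and Kat2a (0.48, edgeR adjusted p = 0.0907) were then not called.

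Between spheroid genotypes 2 of 9 members were called with 4-OHT and 0 with DMSO. The line names share prefixes, some of them found with a single genotype only, and what a prefix stands for is not given. Lines that share a prefix may not be independent, and a common origin cannot be fully told apart from genotype here. With DMSO edgeR called 0 members, 0% of all genes, 0 members at an unadjusted p under 0.05 (1084 genes in all) and DESeq2 0 members. With 4-OHT 2 members were higher in flox/flox than in flox/+ spheroids and 0 lower, beside 10.5% of all genes. They were Ep300 (log2 0.94, SE 0.26, edgeR adjusted p = 0.0247) and Kat2a (0.55, SE 0.16, edgeR adjusted p = 0.0313), while the Crebbp difference was 1.00 (SE 0.40, edgeR adjusted p = 0.119). Ep300 lost its call without flox/+ replicate 2 or 3 or flox/flox replicate 6 (log2 from 0.74 to 0.86, edgeR adjusted p from 0.0674 to 0.0747), without the 4 lines (1.15, edgeR adjusted p = 0.0746) and with only those 2 groups fitted (0.92, edgeR adjusted p = 0.0655). Kat2a lost it without flox/+ replicate 1, 2 or 3 or flox/flox replicate 5 or 6 (edgeR adjusted p from 0.0578 to 0.0885), with only those groups (0.0934) and with no low-count filter (0.0735). Crebbp was called without flox/+ replicate 5 (1.38, edgeR adjusted p = 0.0402).

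Whether 4-OHT acted differently in flox/flox than in flox/+ spheroids was tested as an interaction. Without pairing by line edgeR called 0 members, beside 1.62% of all genes, with 4 members at an unadjusted p under 0.05 and 0 by DESeq2. The same lines were used with DMSO and with 4-OHT, and with the line as a block 3 members were called. These were Ep300 (log2 1.20, edgeR adjusted p = 0.000795), Crebbp (1.42, edgeR adjusted p = 0.00455) and Kat2a (0.62, edgeR adjusted p = 0.0174), against unpaired values of 1.22 (edgeR adjusted p = 0.101), 1.37 (0.252) and 0.63 (0.178). With the block Kat6a was also called within flox/flox spheroids (0.30, edgeR adjusted p = 0.0339).

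**Figure D3:**
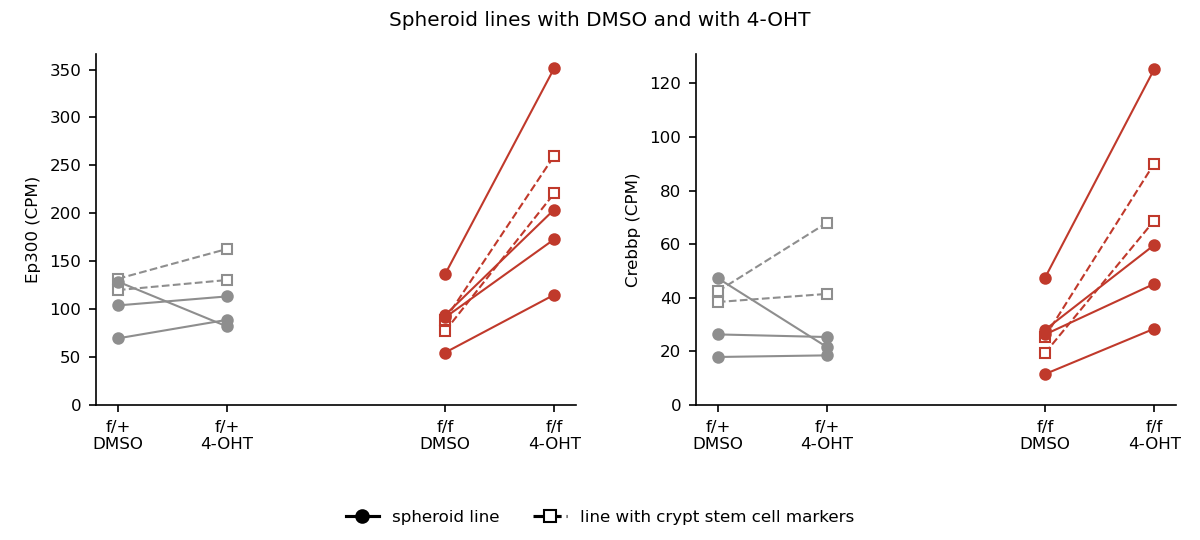
Ep300 (left) and Crebbp (right) level in CPM, on linear axes from 0, in each spheroid line with DMSO and with 4-OHT, joined by line, flox/+ in grey and flox/flox in red; open squares with dashed lines mark the 4 lines with crypt stem cell markers. Ep300 goes up in all 6 flox/flox lines (1.89-fold to 2.92-fold), while treated to DMSO ratios of the 5 flox/+ lines run from 0.636 to 1.28.

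A-485 gave another pattern, led by Kat2b. The RefSeq sequence upstream of Kat2b (build GRCm38.p6, plus strand, chr17:53566721-53566860) is shown with that upstream of Kat2a (minus strand, chr11:100712468-100712717) and of Kat8 (plus strand, chr7:127912267-127912515), since these members had the largest changes under the inhibitor beside Ep300, whose window lies in an exon and is not shown. Each window ends at or next to the annotated start of the gene and leaves out exons, and 8 of the 9 members had an entry. Capitals mark exact matches, on either strand, to 5 searched motifs, the CCAAT box (CCAAT), the GC box (GGGCGG), the ETS core (CCGGAA), the cAMP response element (TGACGTCA) and the E-box (CACGTG).
Kat2b: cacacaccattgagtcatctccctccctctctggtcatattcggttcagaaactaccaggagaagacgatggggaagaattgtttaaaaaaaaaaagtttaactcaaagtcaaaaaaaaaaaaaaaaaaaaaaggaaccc
Kat2a: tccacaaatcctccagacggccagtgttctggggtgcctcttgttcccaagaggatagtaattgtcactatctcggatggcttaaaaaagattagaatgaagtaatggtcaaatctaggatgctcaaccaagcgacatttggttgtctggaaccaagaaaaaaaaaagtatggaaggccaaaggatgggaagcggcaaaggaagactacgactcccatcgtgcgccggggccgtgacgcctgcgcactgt
Kat8: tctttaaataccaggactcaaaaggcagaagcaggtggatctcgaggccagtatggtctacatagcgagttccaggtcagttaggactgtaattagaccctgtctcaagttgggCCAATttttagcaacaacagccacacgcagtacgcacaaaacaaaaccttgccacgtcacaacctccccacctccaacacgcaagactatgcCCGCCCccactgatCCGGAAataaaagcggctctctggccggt

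Of the windows shown only that of Kat8 held matches, 1 each to the CCAAT box, the GC box and the ETS core, none overlapping another. Of 32851 promoter windows of that length, 33.8% held a CCAAT box, 32.6% a GC box and 12% an ETS core. The letters of none of the 5 motifs occur in the 140 bases shown for Kat2b or the 250 bases shown for Kat2a. The other members with an entry were searched over 250 bases, not shown, some of which lie in exons. There Ep300 held 1 GC box, Crebbp 2 and Kat6b 8. Kat5 held 1 CCAAT box and 1 E-box, and Kat7 2 CCAAT boxes. Of all windows of 250 bases 33.8% held a CCAAT box, 32.7% a GC box and 6.02% an E-box. Such a match is a description of the letters only.

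Kat2b rose at every dose of A-485. It had 21.4, 27.4, 26.5 and 20.8 CPM with DMSO in lines 1 to 4, and 48.3, 40.5, 41.4 and 41.0 CPM at 3 µM. At 5 µM it had 74.1, 76.6, 67.4 and 105 CPM, and at 10 µM 108, 119, 121 and 137 CPM. No group overlapped another, so that each dose lay wholly above the one before. The rise over DMSO was 1.79-fold at 3 µM (log2 0.84, SE 0.15, edgeR adjusted p = 0.00072), 3.38-fold at 5 µM (1.76, SE 0.15, edgeR adjusted p = 4.65e-08) and 5.05-fold at 10 µM (2.34, SE 0.15, edgeR adjusted p = 5.59e-10), 3 comparisons that share the 4 DMSO libraries. Steps between doses were also called, 0.92 from 3 to 5 µM (SE 0.15, edgeR adjusted p = 0.000239) and 0.58 from 5 to 10 µM (SE 0.15, edgeR adjusted p = 0.00821). Kat2b belongs to the pair of acetyltransferases that A-485 is not directed at.

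Kat2a, its paralog, went the other way. Lines 1 to 4 had 77.4, 56.2, 79.6 and 67.8 CPM with DMSO, 72.0, 74.2, 72.5 and 28.7 CPM at 3 µM, 58.3, 59.3, 51.2 and 38.1 CPM at 5 µM and 33.0, 43.6, 38.2 and 36.0 CPM at 10 µM. Only the highest dose was wholly below DMSO, and at 3 µM line 4 alone was low. Mitochondrial reads made up 3.31% to 3.76% of the DMSO libraries and 1.81% to 2.68%, 2.27% to 3.44% and 2.15% to 3.23% at the 3 doses, and their part in the A-485 results was not tested. Against DMSO the log2 differences were -0.18 (edgeR adjusted p = 0.631), -0.44 (edgeR adjusted p = 0.111) and -0.90 (SE 0.22, edgeR adjusted p = 0.00201) with rising dose. With the line as a block the difference at 5 µM was -0.43 and was called (edgeR adjusted p = 0.0215), as was the step from 5 to 10 µM (-0.47, edgeR adjusted p = 0.0131, against -0.46 and 0.18 without the block). Unpaired fits of only the groups compared called both too (-0.42, edgeR adjusted p = 0.0276, and -0.47, edgeR adjusted p = 0.0418). Proliferation markers, all 5 detected, moved with dose, from 1270 to 1310 CPM in DMSO to 900 to 1120, 376 to 496 and 289 to 384 CPM, and villus enterocyte markers from 5050 to 10000 CPM in DMSO to 77.3 to 359 CPM at 10 µM, with the part of either in these results not tested.

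Kat8 fell with A-485 as it did with deletion. It had 17.1, 15.7, 18.5 and 16.1 CPM with DMSO, 15.2, 12.1, 15.8 and 7.25 CPM at 3 µM, 7.51, 5.95, 9.23 and 6.07 CPM at 5 µM and 7.23, 6.80, 6.39 and 7.04 CPM at 10 µM. From 5 µM on all libraries lay below every DMSO library. The log2 differences were -0.41 (edgeR adjusted p = 0.213), -1.22 (SE 0.23, edgeR adjusted p = 0.00021) and -1.29 (SE 0.23, edgeR adjusted p = 7.31e-05). Between 3 and 5 µM the step was -0.81 (edgeR adjusted p = 0.0135). That call was lost in separate refits, without the 3 µM library of line 3 (-0.69, edgeR adjusted p = 0.0562) and with only those 2 groups fitted (edgeR adjusted p = 0.0739). It was also lost with the 3 flox/flox lines alone (-0.73, edgeR adjusted p = 0.1). The lowest Kat8 count in an A-485 library was 65 reads, the smallest of any member in that set.

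Ep300, a target of the inhibitor, rose as well. The 4 lines had 130, 138, 163 and 161 CPM with DMSO, 178, 169, 192 and 252 CPM at 3 µM, 241, 213, 256 and 342 CPM at 5 µM and 251, 245, 290 and 351 CPM at 10 µM. Each treated library lay above all DMSO libraries, and line 4 was highest at each dose. The differences were 0.43 at 3 µM (SE 0.17, edgeR adjusted p = 0.0824), 0.84 at 5 µM (SE 0.17, edgeR adjusted p = 0.000462) and 0.94 at 10 µM (SE 0.17, edgeR adjusted p = 8.94e-05), and with the line as a block the difference of 0.43 at 3 µM was called too (edgeR adjusted p = 0.0342), as it was with library totals (0.55, edgeR adjusted p = 0.0272). The step from 3 to 5 µM was 0.41 (edgeR adjusted p = 0.0853), called with the block (edgeR adjusted p = 0.00496) and without the 3 µM library of line 4 (0.55, edgeR adjusted p = 0.0153), which also gave a call for Kat2a (-0.50, edgeR adjusted p = 0.0153).

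Crebbp, the other target, moved little. Its values were 52.0, 61.5, 79.0 and 70.5 CPM with DMSO, 68.0, 65.1, 79.5 and 61.7 CPM at 3 µM, 69.9, 68.1, 93.7 and 94.7 CPM at 5 µM and 69.4, 73.2, 96.3 and 91.8 CPM at 10 µM. Every treated group overlapped the DMSO group. The differences were 0.07 (SE 0.16, edgeR adjusted p = 0.812), 0.32 (SE 0.16, edgeR adjusted p = 0.106) and 0.33 (SE 0.16, edgeR adjusted p = 0.0753). Compared within lines, Crebbp was higher in 4 of 4 at 5 µM (1.11-fold to 1.34-fold) and at 10 µM (1.19-fold to 1.33-fold), and with the line as a block both were called (0.34, edgeR adjusted p = 0.0148, and 0.34, edgeR adjusted p = 0.0106). Without 10 µM replicate 1 or DMSO replicate 3 the unpaired difference at 10 µM was called as well (0.41, edgeR adjusted p = 0.042, and 0.43, edgeR adjusted p = 0.0361), as it was with library totals (0.46, edgeR adjusted p = 0.0178).

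The remaining MYST genes shifted by less. Kat6b rose at 5 µM (0.57, SE 0.17, edgeR adjusted p = 0.00973) and 10 µM (0.49, SE 0.17, edgeR adjusted p = 0.0179), from 23.3 to 35.1 CPM with DMSO to 39.3 to 47.7 and 34.6 to 50.4 CPM, the last overlapping DMSO. The call at 10 µM was lost without DMSO replicate 1 or 4 or 10 µM replicate 4 (edgeR adjusted p from 0.0577 to 0.0723) and with the 3 flox/flox lines alone (0.0512). Kat7 fell at 5 µM, from 119 to 125 CPM with DMSO to 90.98 to 98.2 CPM (-0.38, SE 0.09, edgeR adjusted p = 0.00128), and at 10 µM, to 94.7 to 109 CPM (-0.27, SE 0.09, edgeR adjusted p = 0.0112; -0.14 and 0.174 when scaled by library totals). At 10 µM its call was also lost with no low-count filter (edgeR adjusted p = 0.0559) and with the 3 flox/flox lines alone (0.0961). Kat5 and Kat6a were not called against DMSO at any dose, with differences from -0.37 to 0.18 (SE 0.19 for Kat5 and 0.12 for Kat6a), except that Kat6a was called at 10 µM without 10 µM replicate 1 (0.29, edgeR adjusted p = 0.0404) and with library totals (0.31, edgeR adjusted p = 0.0386).

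In counts, A-485 at 3 µM called 1 member, Kat2b, as higher and 0 as lower, beside 19.2% of all genes, and with the line as a block 2. At 5 µM 3 rose and 2 fell, where 49.6% of all genes were called, and at 10 µM 3 rose and 3 fell beside 62.0%. From 3 to 5 µM 2 members changed, Kat2b upward and Kat8 downward (24.5% of all genes), and from 5 to 10 µM only Kat2b (18.9%, and with the block 3 members, Kat2b, Kat2a and Kat5, the last at -0.42 with edgeR adjusted p = 0.0343). Read against those shares, the number of members called at the higher doses was near that of all genes, with the members differing among themselves in size and direction.

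**Figure D4:**
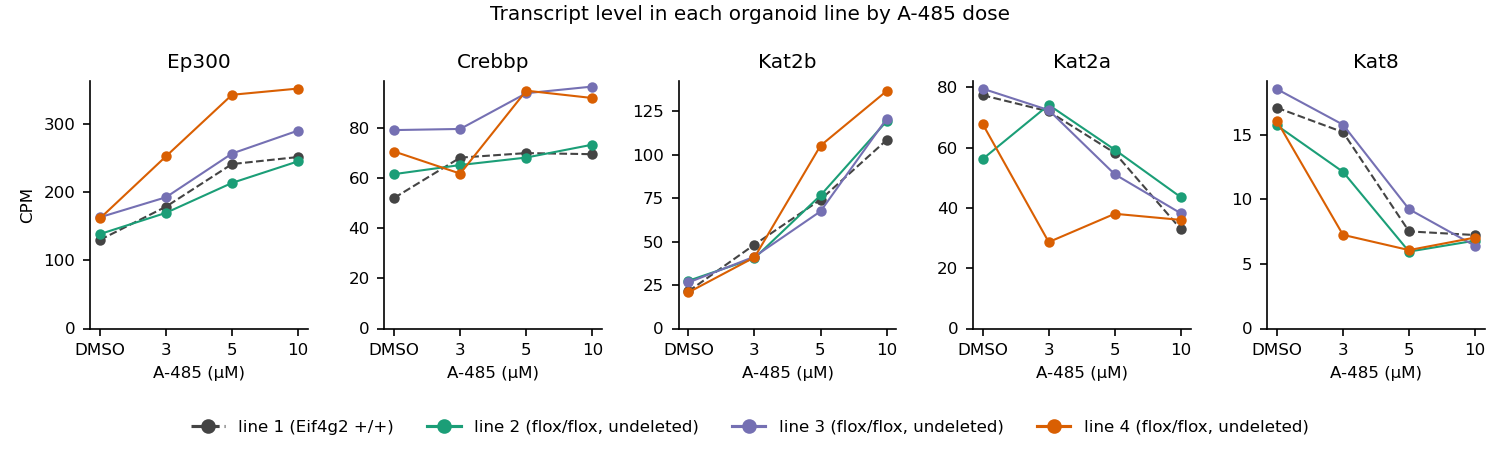
Level in CPM, on linear axes from 0, of Ep300, Crebbp, Kat2b, Kat2a and Kat8 in each of the 4 organoid lines in DMSO and at each A-485 dose in µM, joined by line (dashed for the Eif4g2(+/+) line). Kat2b rises in all 4 lines from 20.8 to 27.4 CPM in DMSO to 108 to 137 CPM at 10 µM, and Kat8 falls to 6.39 to 7.23 CPM.

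Deletion and A-485 were compared by testing, for each gene, the difference between the 4-OHT effect in the first organoid set and the effect of each A-485 dose, each against its own DMSO libraries. The 2 interventions differ in duration, 6 and 4 days, and the 3 tests share the deletion libraries and the A-485 DMSO libraries. The first set had no undeleted control with 4-OHT, the A-485 series received no 4-OHT and included an Eif4g2(+/+) line, and most lines differed. With DMSO, crypt stem cell markers summed to 1160 to 1620 CPM in the first set and 6370 to 7650 in the A-485 series. These CPM were scaled within each set. Series and intervention therefore cannot be told apart. Crebbp rose more after deletion than after A-485 at every dose, by 1.13 (SE 0.22, edgeR adjusted p = 0.00352) against 3 µM, 0.88 (SE 0.22, edgeR adjusted p = 0.00505) against 5 µM and 0.86 (SE 0.22, edgeR adjusted p = 0.00307) against 10 µM. For Ep300 the excess of deletion was 0.89 (SE 0.23, edgeR adjusted p = 0.0265), 0.48 (SE 0.23, edgeR adjusted p = 0.143) and 0.37 (SE 0.23, edgeR adjusted p = 0.214), and with the line as a block the last 2 were called (0.51, edgeR adjusted p = 0.0176, and 0.34, edgeR adjusted p = 0.0497). Against 5 µM it was called as well without 5 µM replicate 4 (0.63, edgeR adjusted p = 0.0319). With the block the difference against 3 µM was also called (0.89, edgeR adjusted p = 0.00841). The Ep300 call against 3 µM was lost on leaving out DMSO replicate 1 or 4-OHT replicate 1 or 2 of the first set, 3 µM replicate 1 or 2 or DMSO replicate 2, 3 or 4 of the A-485 series (log2 from 0.81 to 0.87, edgeR adjusted p from 0.0514 to 0.0817), and with the 3 flox/flox A-485 lines alone (0.89, edgeR adjusted p = 0.0692).

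Kat2a and Kat2b differed in opposite directions between the first organoid set and the A-485 series. Kat2a, higher after deletion and lower after A-485, differed by 0.73 (SE 0.31, edgeR adjusted p = 0.207), 1.00 (SE 0.31, edgeR adjusted p = 0.0217) and 1.45 (SE 0.31, edgeR adjusted p = 0.000712) with rising dose. Its call against 5 µM was lost without first-set DMSO replicate 2 or 3 or 4-OHT replicate 3 (log2 from 0.90 to 0.98, edgeR adjusted p from 0.0527 to 0.0657), with no low-count filter (0.0524) and with the 3 flox/flox A-485 lines alone (0.0568). Kat2b, uncalled after deletion, differed by -0.68 (SE 0.21, edgeR adjusted p = 0.0666), -1.60 (SE 0.21, edgeR adjusted p = 1.35e-05) and -2.18 (SE 0.21, edgeR adjusted p = 6.49e-08), the first called without A-485 DMSO replicate 2 (-0.80, edgeR adjusted p = 0.0456) and in DESeq2 (-0.70, adjusted p = 0.038). Kat8 fell under both, and in the main fit the differences of -0.26, 0.56 and 0.63 (SE 0.29 each) were not called (edgeR adjusted p = 0.734, 0.18 and 0.0929). With the line as a block they were called against 5 µM (0.58, edgeR adjusted p = 0.0466) and 10 µM (0.58, edgeR adjusted p = 0.0346), the fall being larger with A-485. An unpaired fit of only the groups compared also called Kat8 against 10 µM (0.58, edgeR adjusted p = 0.0151). Kat5, Kat6a, Kat6b and Kat7 gave no call in these tests, with differences from -0.06 to 0.41.

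By count, 2 members were higher after deletion than after 3 µM A-485 and 0 lower (4.87% of all genes called), 2 higher and 1 lower against 5 µM (23.6%) and 2 higher and 1 lower against 10 µM (39.4%). With the line as a block the last 2 counts were 5 each.

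**Figure D5:**
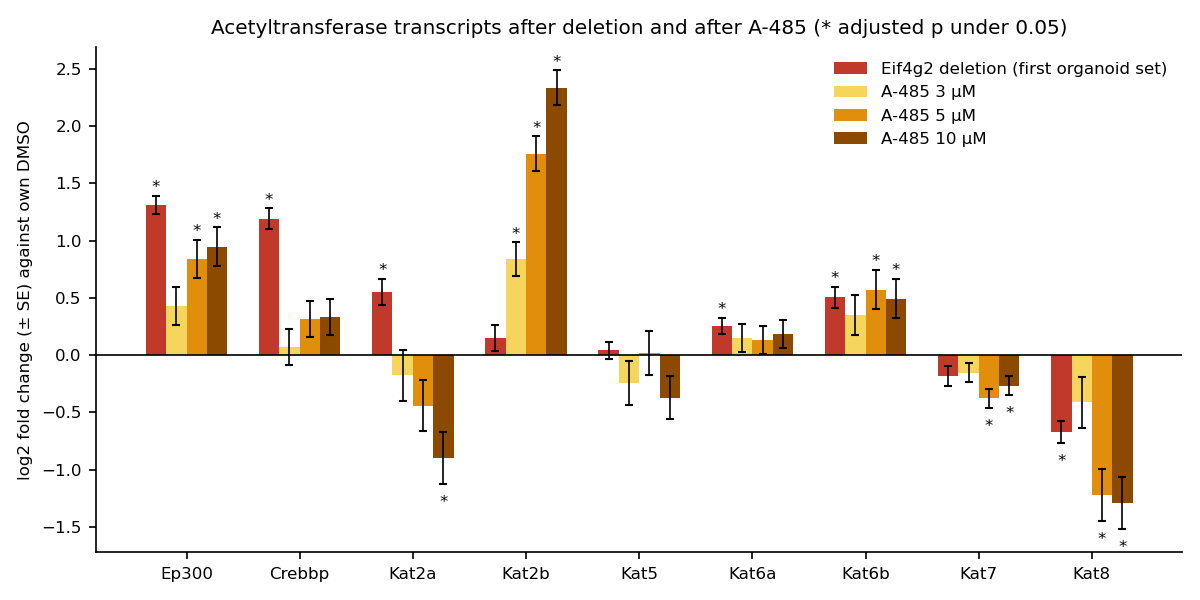
Log2 fold change of the 9 members, bars with ± SE, after deletion in the first organoid set and after A-485 at 3, 5 and 10 µM, each against its own DMSO libraries; stars mark an adjusted p under 0.05. Crebbp is at 1.19 after deletion and at most 0.33 after A-485, Kat2b at 0.15 and up to 2.34, and Kat2a changes sign between the interventions.

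The effect of deletion was also compared between villi and crypts. In Rosa26-CreER mice edgeR called 0 members, beside 11.5% of all genes, with 1 at an unadjusted p under 0.05 and 0 by DESeq2, and Kat2a was called (1.26, edgeR adjusted p = 0.00604) without the third heterozygous villus library. In Vil1-CreER mice 1 member was called, beside 15.5% of all genes. This was Kat2a, whose rise was larger in villi by 1.15 (SE 0.38, edgeR adjusted p = 0.0493). The call was lost on leaving out any crypt library, heterozygous villus replicate 1 or 4, or homozygous villus replicate 1, 2, 4 or 6 (log2 from 0.97 to 1.19, edgeR adjusted p from 0.0541 to 0.103), and with no low-count filter (1.20, edgeR adjusted p = 0.0682). For Ep300 the villus effect exceeded the crypt effect by 0.49 (SE 0.21, edgeR adjusted p = 0.128) with Rosa26-CreER and 0.33 (SE 0.15, edgeR adjusted p = 0.123) with Vil1-CreER, the latter called with library totals (0.62, edgeR adjusted p = 0.0184), as was Crebbp (0.61, edgeR adjusted p = 0.0339; 0.33 and 0.12 with TMM).

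Crypts and villi of heterozygous mice differed most in the GCN5 and PCAF pair. Kat2a was 11.9-fold higher in crypts of Rosa26-CreER mice (log2 3.57, SE 0.34, edgeR adjusted p = 1.33e-06), 42.3, 51.6, 40.4, 34.2 and 47.1 CPM against the 2.10 to 7.57 CPM of villi given above. With Vil1-CreER it was 7.17-fold higher (2.84, SE 0.21, edgeR adjusted p = 1.16e-06). Kat2b was lower in crypts by 1.22 (SE 0.08, edgeR adjusted p = 5.26e-08) and 1.14 (SE 0.14, edgeR adjusted p = 3.4e-05) on the log2 scale, with crypt values of 23.2, 22.4, 25.4, 28.4 and 27.5 against villus values of 64.1, 58.1, 51.2, 55.9 and 54.3 CPM in Rosa26-CreER mice. The pair thus ran in opposite directions between crypts and villi with both drivers. With library totals the Kat2b difference was -0.26 (edgeR adjusted p = 0.0735) with Rosa26-CreER and -0.53 (edgeR adjusted p = 0.00478) with Vil1-CreER. In all 1 member was higher and 3 lower in Rosa26-CreER crypts, where 77.1% of all genes were called, and 2 higher and 1 lower in Vil1-CreER crypts (67.9%). With library totals these counts were 8 higher and 0 lower, and 8 higher and 1 lower. The second member higher in Vil1-CreER crypts was Kat7 (0.57, SE 0.10, edgeR adjusted p = 0.000342). Scaling by library totals moved the median of all genes by 0.96 and 0.61, and with it Ep300 and Crebbp came out higher in crypts (0.68 and 0.64 with Rosa26-CreER, 0.50 and 0.51 with Vil1-CreER), so their small differences of -0.28 and -0.32 in Rosa26-CreER mice depend on scaling. Those 2 calls also depended on single libraries, Ep300 on heterozygous crypt replicates 3, 4 and 5 and villus replicates 2, 4 and 5 (edgeR adjusted p from 0.0669 to 0.135 without any of them) and Crebbp on villus replicates 4 and 5 (0.0563 and 0.069), and both were lost with no low-count filter (edgeR adjusted p = 0.232 and 0.118).

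Flox/+ spheroids and flox/+ organoids, both with 4-OHT, differed in 5 members, 1 higher and 4 lower in spheroids, beside 37.9% of all genes. Kat2b was higher (0.47, SE 0.16, edgeR adjusted p = 0.0231), and Kat5 (-0.60, SE 0.14, edgeR adjusted p = 0.0014), Kat8 (-0.53, SE 0.10, edgeR adjusted p = 0.000117), Kat2a (-0.49, SE 0.14, edgeR adjusted p = 0.00769) and Kat7 (-0.35, SE 0.14, edgeR adjusted p = 0.0444) were lower. Without the 4 spheroid lines that carry crypt stem cell markers 8 members were called, with Crebbp (-1.27, edgeR adjusted p = 0.0119), Kat6b (-1.09, edgeR adjusted p = 0.0307) and Kat6a (-0.69, edgeR adjusted p = 0.0401) in addition. Leaving out spheroid replicate 5 alone also gave 8 calls. Leaving out organoid replicate 2, 3 or 4 removed the calls of Kat2b and Kat7 (3 left), spheroid replicate 4 that of Kat2b and spheroid replicate 1, 2 or 3 that of Kat7 (edgeR adjusted p from 0.0632 to 0.113 over these). With no low-count filter both calls were lost too (0.0691 and 0.079), and with library totals that of Kat2b (0.31, edgeR adjusted p = 0.161). Rnaseh2c overlaps Kat5 on the other strand, so the Kat5 value carries the same doubt about strand as Kat8.

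To set the members beside each other, levels were divided by the gene length given with the counts, a single value per gene (CPM per kb). The order of the members depends on that length. In the first organoid set with DMSO Kat7 was highest at 18.9 ± 1.8, followed by Kat5 at 17.3 ± 0.1 and Kat2a at 16.6 ± 0.7, whose ranges of 1 SD overlapped with that of Kat7 (SD, n = 3 for each value). Kat6a (9.10 ± 0.22) and Ep300 (8.83 ± 0.33) came next and were not separated by their spread, and Crebbp (4.23 ± 0.32) and Kat6b (2.20 ± 0.08) were lowest. With 4-OHT the order opened with Kat2a at 24.5 ± 3.5 and Ep300 at 22.1 ± 1.2, which overlapped, so Ep300 moved from the fifth place to the second. In the A-485 series Kat7 led with DMSO (22.2 ± 0.5) and Kat2b stood seventh (4.94 ± 0.70, SD, n = 4), whereas at 10 µM Kat2b led at 24.9 ± 2.4, followed by Ep300 at 19.9 ± 3.4, not separated by 1 SD, and Kat8 at 2.37 ± 0.12 was last, not separated from Kat6b at 2.43 ± 0.41. Heterozygous Rosa26-CreER villi had Kat2b first at 11.7 ± 1.0 and Kat2a last at 1.01 ± 0.66, while in crypts of the same genotype Kat2a at 12.4 ± 1.9 and Kat7 at 12.3 ± 0.8 were first (SD, n = 5 each), each of these not separated by its spread from the next in order. Homozygous villi of both drivers had Ep300 first, at 19.3 ± 3.8 with Rosa26-CreER (SD, n = 5) and 13.9 ± 0.9 with Vil1-CreER (SD, n = 6), there not separated from Kat5 at 12.53 ± 1.1.

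Genes of the complexes in which these enzymes work were taken from 7 lists of 80 genes. In the first organoid set 27 of the 79 tested rose and 3 fell, 38.0% called beside 35.4% of all genes, with a median log2 difference of 0.18 against 0.03 for all genes. The genes that changed most were Cited4 (1.12) and Ncoa3 (1.00), binding partners of p300 and CBP, and Jade2 (0.91), a scaffold of HBO1 complexes. Cited4 rose in flox/flox spheroids too (1.11, edgeR adjusted p = 0.0402). In villi it instead fell after deletion, with Rosa26-CreER (-1.28, edgeR adjusted p = 0.0126) and with Vil1-CreER (-1.67, edgeR adjusted p = 0.00728). In the second set 33 rose and 13 fell against flox/+ (58.2% called, all genes 46.8%), led by Brd1 (0.80), a scaffold of MYST complexes, Crtc3 (0.78), a CREB coactivator, and Msl2 (0.73), of the MSL complex. MSL and NSL genes, the partners of Kat8, had 6 of 10 higher in both organoid sets, with 0 lower in the first (60% called) and 1 in the second against flox/+ (70% called). In flox/flox spheroids 13 of 80 rose and 2 fell, 18.8% called beside 19.1% of all genes (median 0.19, all genes -0.02).

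With A-485 the counts were 3 higher and 3 lower of 78 at 3 µM (7.69% called, all genes 19.2%), 11 and 18 at 5 µM (37.2%, all genes 49.6%), and 16 and 26 at 10 µM (53.8%, all genes 62.0%). At each dose the called share was thus below that of all genes, and at 10 µM the median was -0.10 against -0.05 for all genes. At 10 µM Cited4 (-2.14) and Sgf29 (-1.92), a SAGA and ATAC subunit that reads H3K4 methylation, fell, and Brd2 (1.79), a reader of acetylated histones, rose. Hat1, the acetyltransferase of new H4, was lower by 1.34 at 5 µM on the log2 scale. At 10 µM TIP60 complex genes gave 1 higher and 6 lower of 16 (43.8% called), and SAGA and ATAC genes 4 higher and 7 lower of 21 (52.4%), the median of the latter list being positive (0.11). Tested against deletion, 29 of 79 were higher after deletion than after 10 µM A-485 and 4 lower (41.8% called, all genes 39.4%), and the higher ones included Sgf29 (1.93) and Ruvbl2 (1.44), an ATPase of the TIP60 complex. In the tissues the complexes gave 9 higher and 7 lower of 79 in Rosa26-CreER crypts (20.3% called, all genes 20.2%) and 20 and 11 of 78 in Rosa26-CreER villi (39.7%, all genes 33.2%). With Vil1-CreER they gave 14 and 7 of 79 in crypts (26.6%, all genes 29.3%) and 21 and 12 of 79 in villi (41.8%, all genes 42.5%).

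As a description, log2 levels were centred within each of the 8 sets of libraries and correlated over all 92 libraries among 7133 genes. These libraries share treatments and sets, so they are not independent points. Ep300 and Crebbp ranked second in each other's lists (r = 0.93). Nearest to Ep300 was Wac (r = 0.934), with Ralgapa1, Wnk1 and Taok1 after Crebbp (r from 0.913 to 0.927), and nearest to Crebbp was Zfp646 (r = 0.944), with Cdk12, Phf12 and Cramp1l after Ep300 (r from 0.902 to 0.929). Kat6b correlated with Crebbp at 0.729 and with Ep300 at 0.647, and Kat8 with Ep300 at -0.702. The gene nearest to Kat2b was Cyld (0.897), to Kat6b Bptf (0.86), to Kat6a Ncor1 (0.856), to Kat8 Acss1 (0.83), to Kat7 Rbl1 (0.808) and to Kat5 Ccar2 (0.609). Kat2a did not reach the level minimum in villi and has no such list.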

How the data were processed

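Poly(A) RNA was made into directional (dUTP) libraries, per the labels' protocols. The 4 tables deposited by the authors hold unnormalized read counts for each gene. Reads were aligned with HISAT2 2.0.5 to GRCm38 (mm10), per the submitters' processing notes; the counting program, annotation and strand setting are not given in the sources used here. Library totals were 22458821 to 37611126 (Rosa26-CreER tissue), 23957033 to 36985500 (Vil1-CreER tissue), 23294520 to 32352542 (first organoid set), 14790237 to 24736323 (second), 15013890 to 30878778 (spheroids) and 8652040 to 16436145 (A-485). Libraries grown in WENR medium are not used here.

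Members and lists were chosen with earlier results of these data known. Each of 26 comparisons was fitted over all genes in edgeR 4.0.16 (R 4.3.3) with filterByExpr, TMM, robust quasi-likelihood dispersions and Benjamini-Hochberg adjustment, called under 0.05; all 9 members passed the filter in each. The method was tested on simulated data. Tissue comparisons, crypts against villi and the first organoid set used only their groups; other sets were fitted whole. Named genes are the 9 members, Eif4g2, up to 3 called complex genes with the largest change per comparison (the text gives a selection) and the genes most correlated with each member (5 for Ep300 and Crebbp, 1 for others; mean log2 CPM of at least 3 in every set). The 4 spheroid lines apart were defined after the data were seen, by a sum of crypt stem cell markers above 1000 CPM with DMSO.

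Replicate numbers or line names were taken to pair libraries where the line or animal was the same (first organoid set, A-485, spheroids by treatment, crypts against villi) or where every pair correlated above 0.1 (Rosa26-CreER crypts, 0.122 to 0.652). Correlations by line were 0.419 to 0.543 in the first organoid set, 0.106 to 0.582 in A-485 and 0.434 to 0.928 in spheroids. Other groups share numbers only. The labels name an animal or line for the libraries, by a letter alone for CreER-only organoids; where nothing says that samples came from separate animals, p-values measure only the spread between them, which may be technical. No 2 libraries of a group agreed within sampling noise (smallest chi-square per degree of freedom 6.26). Alternatives were library totals, DESeq2 1.42.0 with its size factors and Wald test, no low-count filter, other groups in the fit, a replicate block, covariates and leaving out each library. Promoter sequences and motif shares are from RefSeq.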

Additional observations from a re-analysis of the deposited data

Results flagged for a closer look

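Of 162 groups and genes examined, 7 held a library far from the rest of its group, where chance alone gives about 1 in 20. Kat2a had its low value in line 4 at 3 µM A-485, 28.7 CPM where the next was 72.0, and its high value in the third heterozygous Rosa26-CreER villus library, 7.57 CPM where the next was 2.79. Kat2b was high in line 1 at 3 µM A-485, 48.3 CPM against 41.4 for the next, and in the first flox/+ library of the second organoid set, 32.6 against 26.8 CPM. Kat5 was high in the first flox/+ spheroid line with DMSO, 36.0 against 26.7 CPM. Kat6b was high in flox/flox spheroid line 6 with DMSO, 56.0 against 26.1 CPM, and in flox/+ spheroid line 5 with 4-OHT, 44.3 against 24.4 CPM.

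The effect of deletion on Kat2a differed between villi and crypts of Vil1-CreER mice by 1.15 on the log2 scale, with an edgeR adjusted p of 0.0493 in the test of that difference. The call was lost on leaving out any 1 of 13 of the 17 libraries and with no low-count filter (1.20, edgeR adjusted p = 0.0682). Each of the 6 homozygous villus libraries was above all 4 heterozygous ones, and each of the 3 homozygous crypt libraries above all 4 heterozygous ones.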

How the results depend on the processing

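Of 1221 refits of the 72 called member values 1108 kept direction and call, 111 lost the call and 2 reversed; of 3063 refits of the 162 others, 75 gained a call in the same direction and 5 in the other. All 7 reversals came from library totals in crypts against villi, which made Ep300 0.68, Crebbp 0.64 and Kat6a 0.87 with Rosa26-CreER, and Ep300 0.50, Crebbp 0.51, Kat5 0.57 and Kat6a 0.60 with Vil1-CreER; the median of all genes moved by 0.96 and 0.61. It moved by 0.30 in the Vil1-CreER difference between villi and crypts, 0.17 in Vil1-CreER villi, -0.17 in spheroids against organoids, -0.15 in Vil1-CreER crypts, -0.11 in Rosa26-CreER crypts and 0.12 at 3 and 10 µM A-485.

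Members called changed by over 1.5 times as follows, and the cause was not tested. Library totals gave 8 for crypts against villi with Rosa26-CreER (main 4), 9 with Vil1-CreER (main 3), 2 at 3 µM A-485 (main 1) and 3 for the Vil1-CreER difference between villi and crypts (main 1). No low-count filter gave 0 there, 1 between spheroid genotypes with 4-OHT (main 2) and 3 for spheroids against organoids (main 5). Fitting all tissue groups gave 2 in Vil1-CreER crypts (main 4), and only the groups compared 1 from 3 to 5 µM (main 2), 2 from 5 to 10 µM (main 1) and 0 between spheroid genotypes with 4-OHT. Only the 3 flox/flox lines gave 1 from 3 to 5 µM and 1 for deletion against 3 µM (main 2). DESeq2 gave 1 for flox/+ against CreER-only organoids (main 0). Without the 4 spheroid lines the counts were 2 in flox/flox spheroids (main 4), 1 between genotypes with 4-OHT and 8 against organoids.

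With the replicate block (the line, where it pairs) the counts were 2 at 3 µM, 3 from 5 to 10 µM, 5 for deletion against 5 µM and 5 against 10 µM (main 3 each), and 3 for the spheroid interaction (main 0). Between spheroid genotypes with 4-OHT, where numbers do not pair, the block gave 0. Paired fits changed no other count by over 1.5 times; single calls they changed where libraries pair stand beside the values above.

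Leaving out 1 library gave 1 to 4 members from 3 to 5 µM, 0 to 3 between spheroid genotypes with 4-OHT, 2 to 5 for Rosa26-CreER crypts against villi, 3 to 8 for spheroids against organoids, 1 to 2 for deletion against 3 µM, and 0 to 1 for the difference between villi and crypts with either driver.

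Counts over all genes moved by over 1.5 times for Rosa26-CreER villi with a Y-linked covariate (4504 to 2967), the first organoid set with all groups (5422 to 3079), 3 µM with 3 lines (2637 to 1374), 3 to 5 µM with its groups only (3358 to 2229), 5 to 10 µM with the block (2592 to 3941), flox/flox spheroids with the block (2864 to 4649), spheroid genotypes with 4-OHT (1577 to 880 with those groups only, 141 with the block), the spheroid interaction (243 to 603 by DESeq2, 123 unfiltered, 2758 with the block), flox/+ against CreER-only organoids (16 to 148 by DESeq2, 60 unfiltered, 30 with the block), deletion against 3 µM (726 to 1165 by DESeq2) and the Rosa26-CreER difference between villi and crypts (1904 to 2884 by DESeq2, 1221 unfiltered, 777 with the block). Leaving out 1 library moved such counts to as few as 1937 in Rosa26-CreER crypts (main 3198), 3223 in Vil1-CreER crypts (main 4960), 1456 for the Vil1-CreER difference between villi and crypts (main 2766), 411 for deletion against 3 µM and 131 for the spheroid interaction, and to between 1079 and 3068 for the Rosa26-CreER difference between villi and crypts and between 1 and 32 for flox/+ against CreER-only organoids. Depth limits Kat8 and villus Kat2a most, at 65 and 44 reads in their lowest libraries.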
